A study of Zea mays with 9 samples.

Results

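In the second leaf of maize seedlings, a module of 167 of the 30184 genes in the deposited table was raised at a low ratio of red to far-red light (low R:FR). By the deposited labels, each of these genes stood higher in every low R:FR library, from neighbouring weeds or from far-red lamps, than in any weed-free library. The labels of the artificial and weed-free groups are open to doubt, as set out below. These 167 genes were chosen by their measured values in the libraries described here. A gene entered when its mean over all 9 libraries was at least 20 normalized counts, its weed-free mean was below 20000, its lowest value in the 6 low R:FR libraries lay above its highest weed-free value, and the log2 ratio of its mean plus 1 over the weed-free mean plus 1 was at least 0.7 for the biological and for the artificial source. Of the 30184 genes, 20939 lay within the bounds on the mean, and 169 met the values before 3 identifiers were left out by name. The ratios to the weed-free control therefore describe the genes, and calls that a fit over all genes makes for them in these contrasts are no evidence for their rise. The choice set no bound on the difference between the biological and the artificial source, so that comparison was tested. It did require both sources to be high, which leaves out genes raised by a single source. Shares of the module that differ between the sources are therefore partly set by the choice when put beside those of all genes.

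Plants read the presence of neighbours through phytochromes, red and far-red photoreceptors that switch between an active and an inactive form. Green leaves absorb red light and reflect far-red light, so the light beside a neighbour is poor in red, less phytochrome is in the active form, and transcription factors that it holds back, the PIF proteins, act on their target genes. The response, shade avoidance, is known for stem and leaf elongation, for changes in hormone pathways, and for shifts in defence and pigment metabolism.

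The plants were a maize hybrid (CG108 x CG102) grown for 9 days in a controlled environment chamber, and each library came from the pooled second leaves of 3 plants. The biological low R:FR group grew in pots ringed by a grass mixture as surrogate weed (label R:FR 0.6, 3 libraries), the artificial low R:FR group grew without weeds under added far-red bulbs and diode bars (label R:FR 0.6, 3 libraries), and the weed-free control had neither (label R:FR 1.5, 3 libraries). The maize grew in cups set in a tube that kept its roots from those of the grass, and incoming light was held at a like level in all groups. The space around the tube held potting mix in the biological group and baked clay granules in the other groups. The biological group thus differed from the control by living neighbours and by this fill as well as by light quality. The labels differ from the study's text, which gives a higher R:FR for the control and a slightly lower one for both low R:FR groups. Reads counted to genes were 23372555, 28262228 and 40283408 in the biological libraries, 29642168, 31098648 and 36995731 in the artificial libraries, and 33132805, 22775151 and 29845324 in the weed-free libraries. Markers of a green C4 leaf were abundant in all 9 libraries: pep1, the C4 phosphoenolpyruvate carboxylase, ranked 2 of all genes by mean normalized count, and the light-harvesting gene lhcb3 ranked 10. A marker of dividing cells, pcna1, lay at 39.5 to 59.8 normalized counts in the biological, 52.8 to 70.1 in the artificial and 30.4 to 40.9 in the weed-free libraries. Another, pcna2, was near the floor and not raised, at 1.26 to 3.12 in the biological, 0 to 2.30 in the artificial and 0.90 to 5.11 in the weed-free libraries. The part of dividing cells in the results was not tested.

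The labels and libraries need a remark before the values. The read totals of the libraries labelled artificial and weed-free match the library sizes listed by the study, replicate by replicate, when these groups are exchanged. Each total then lies only slightly below the listed size, which is the number the study heads as mapped reads. Each also exceeds the smaller number listed beside it, headed as base pairs sequenced. The percent mapped given by the study is near the ratio of the smaller to the larger number, so these headings are open to doubt. As labelled, artificial replicate 2 (31098648 reads) and weed-free replicate 2 (22775151 reads) are far from their listed sizes. The biological libraries match as labelled. All results here follow the deposited labels. Were the labels exchanged, the 167 genes would be genes that were lower under artificial low R:FR light than in both other groups, and the comparison given below as biological against artificial would be biological against weed-free. Biological replicate 3 stood apart from the rest: its mean distance to the other libraries was 0.909 on the log2 scale, against 0.576 to 0.65 for the other 8 libraries. Without it, the same choice gave 173 genes, 134 of them among the 167.

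Across the 167 genes, the median level over the weed-free mean was 1.07, 0.74 and 1.19 log2 units in the biological libraries, 1.21, 0.93 and 0.94 in the artificial libraries, and 0.03, -0.09 and 0.03 in the weed-free libraries. Over all genes within the bounds on the mean, the same median stayed between -0.02 and 0.01 in every library. The low R:FR libraries thus lay above the weed-free ones in the median of these genes, as the choice requires, and the level differed from library to library within each low R:FR group. Together the genes took 0.64, 0.513 and 0.629% of the gene counts in biological libraries, 0.731, 0.587 and 0.623% in artificial libraries, and 0.318, 0.294 and 0.32% in weed-free libraries. Because these are whole leaves, more RNA of a gene per cell and more cells that express it cannot be told apart.

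**Figure D1:**
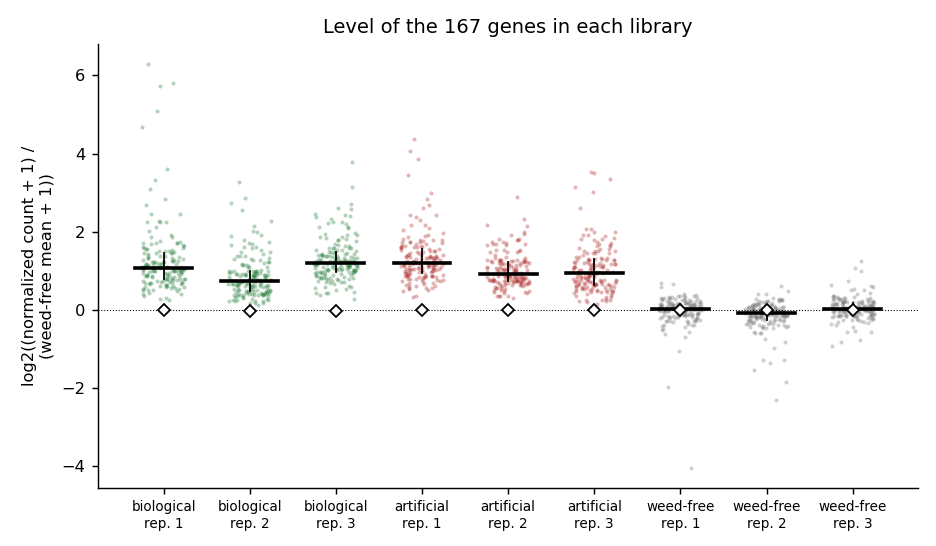
Level of each of the 167 genes in each library, as log2 of the normalized count plus 1 over the weed-free mean plus 1. Points are genes, the thick bar is their median, the thin vertical line runs between the quartiles, and the diamond is the median over all 20939 genes within the bounds on the mean. Biological replicate 2 has the lowest median (0.74) and artificial replicate 1 the highest (1.21) of the 6 low R:FR libraries, and all diamonds lie near 0.

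Biological replicate 2 was the lowest of its group in 107 of the 167 genes (64.1%), against 33.7% of the genes within the bounds. It was also the lowest of all 6 low R:FR libraries in 74 genes, a count for which no share over other genes was taken. Biological replicate 3 was the highest of its group in 90 genes (53.9%, against 42.7% of the genes within the bounds), and artificial replicate 1 in 96 genes (57.5%, against 29.7%). The genes also varied more between replicates than others did: the median coefficient of variation was 26% in the biological, 22.3% in the artificial and 15% in the weed-free group, against 19.5%, 11% and 9% over the genes within the bounds. The gap that the choice requires was narrow for most genes. The lowest low R:FR value was at least 1.5 times the highest weed-free value in 31 genes and at least 2 times in 5 genes. Of all genes within the bounds, 4.39% had 6 low R:FR values above all 3 weed-free values.

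The log2 ratio to the weed-free control ran between 0.70 and 4.90 under the biological source (median 0.99) and between 0.70 and 3.41 under the artificial source (median 1.051). Both ratios were at least 1 in 61 genes and at least 2 in 8 genes. By mean over all libraries, 108 genes lay between 50 and 1000 normalized counts, 29 below and 30 above that range. In a limma fit over all genes, 7 of the 166 members tested were called higher under the biological source at an adjusted p under 0.1, where 0.0466% of all genes tested were called higher. Under the artificial source, 157 of 166 were called higher, where 9.98% of all genes tested were. Both counts come from the contrasts that chose the genes, so nothing is read from them. Just inside the threshold were sfp3, with log2 ratios of 0.70 (biological) and 0.76 (artificial), and the long non-coding RNA LOC103625727, with 0.70 and 0.86. Just outside were LOC100276501, with 0.72 and 0.699, and LOC100383322, with 0.697 and 0.79.

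**Figure D2:**
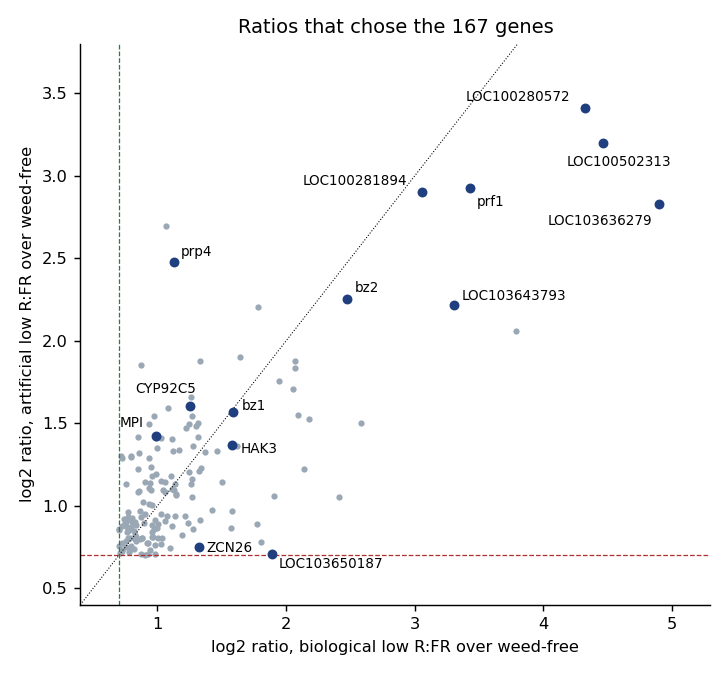
Log2 ratio of each of the 167 genes over weed-free for the biological source (horizontal axis) and the artificial source (vertical axis). Dashed lines mark the 0.7 that each ratio had to reach, the dotted line marks equal ratios, and named genes are dark. These are the values the genes were chosen by. Most points crowd near the corner of the dashed lines, and LOC103636279, LOC100280572 and LOC100502313 lie farthest along the biological axis.

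The genes with the largest ratios were carried by a few libraries. LOC100280572 (chromosome 10, 64760900 to 64761777, minus strand) had 872, 34.3 and 70.3 normalized counts in biological libraries, 271, 80.7 and 167 in artificial libraries, and 0, 12.8 and 33.2 in weed-free libraries. Biological replicate 1 was far above its group, and biological replicate 2 lay just above weed-free replicate 3. Its log2 ratios were 4.32 (biological) and 3.41 (artificial), and the biological one was 1.71 without biological replicate 1. LOC100502313 (chromosome 3, 179073530 to 179076400, minus strand) had 405, 31.2 and 38.8 normalized counts in biological libraries, 149.9, 21.9 and 24.5 in artificial libraries, and 5.37, 3.83 and 9.48 in weed-free libraries. Here replicate 1 was the high library in both low R:FR groups. Without replicate 1 of the group concerned its log2 ratios were 2.31 in place of 4.46 (biological) and 1.74 in place of 3.20 (artificial). LOC103636279 (chromosome 8, 164017215 to 164023610, plus strand) had 2509, 156 and 211 in biological libraries, 463, 91.7 and 128 in artificial libraries, and 51.0, 24.3 and 18.0 in weed-free libraries. Its log2 ratios were 4.90 and 2.83, or 2.52 without biological replicate 1 and 1.79 without artificial replicate 1.

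The profilin gene prf1 (LOC542409, chromosome 6, 171640467 to 171641576, plus strand), which encodes a small actin-binding protein, had the same form. It had 147, 9.35 and 25.9 normalized counts in biological libraries, 61.3, 20.9 and 45.2 in artificial libraries, and 1.79, 3.83 and 8.53 in weed-free libraries, so that biological replicate 2 was within 1 normalized count of weed-free replicate 3. Its log2 ratios were 3.43 and 2.93, and the biological one was 1.70 without biological replicate 1. LOC103650720 (chromosome 3) lay between 12.5 and 140.3 in biological, 5.98 and 32.1 in artificial, and 1.79 and 3.83 in weed-free libraries, and its log2 ratios of 3.79 and 2.06 were 1.85 without biological replicate 1 and 1.18 without artificial replicate 1. Counting over the module, biological replicate 1 was at least 3 times the next biological library in 6 genes, and in 0.086% of the genes within the bounds. Those 6 genes were the 5 just given and LOC100274974, which had 1434, 174 and 250.4 normalized counts in biological libraries, 332, 149 and 242 in artificial libraries, and 141, 84.3 and 121 in weed-free libraries, and which was named after its values were seen. In 45 of the 167 genes (26.9%) replicate 1 was the highest library of both low R:FR groups, against 11.3% of the genes within the bounds. No source used here gives these unnamed genes a function.

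Other genes with large ratios were high in all 6 low R:FR libraries. LOC103643793 (chromosome 10, 25427355 to 25427989, minus strand) had 413, 353 and 667 normalized counts in biological libraries, 128, 361 and 184 in artificial libraries, and 50.1, 48.6 and 43.6 in weed-free libraries, with log2 ratios of 3.31 and 2.22. LOC100281894 (chromosome 1, 307135192 to 307136760, minus strand) had 215, 126 and 189 in biological libraries, 152, 79.8 and 245 in artificial libraries, and 4.48, 6.39 and 50.2 in weed-free libraries. For this gene the weed-free libraries differed among themselves, and its log2 ratios of 3.06 and 2.90 were 4.79 and 4.63 without weed-free replicate 3. LOC103635019 (chromosome 8) had 281, 215 and 359 in biological libraries, 432, 366 and 351 in artificial libraries, and 62.7, 75.4 and 109 in weed-free libraries. LOC103639536, LOC100280687 and LOC100274473 had log2 ratios of 2.07, 2.07 and 1.95 under the biological source and 1.88, 1.84 and 1.75 under the artificial source. LOC100280687 was low throughout, at 21.5, 33.2 and 50.9 normalized counts in biological, 31.2, 37.9 and 20.7 in artificial, and 8.06, 2.56 and 12.3 in weed-free libraries.

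Both late steps of anthocyanin formation that carry a classical bronze name were in the module. Anthocyanins are the red and purple flavonoid pigments of maize leaves and kernels. The gene bz1 (LOC732800, chromosome 9, 13120406 to 13122162, minus strand) encodes the glucosyltransferase that adds a sugar to the pigment. It had 88.5, 70.6 and 84.0 normalized counts in biological libraries, 81.8, 44.9 and 113 in artificial libraries, and 21.5, 24.3 and 33.2 in weed-free libraries. Its level was 3.00-fold and 2.96-fold that of the control, counting 1 added to each mean. The gene bz2 (LOC100502255, chromosome 1, 247049871 to 247051165, minus strand) encodes a glutathione transferase needed to bring the pigment into the vacuole. It had 234, 146 and 223 normalized counts in biological libraries, 195, 103 and 219.7 in artificial libraries, and 28.6, 6.39 and 71.1 in weed-free libraries. The weed-free libraries of bz2 spread more than 10-fold, and its log2 ratios of 2.47 (biological) and 2.25 (artificial) were 3.45 and 3.23 without weed-free replicate 3. Averages for bz2 were 201 ± 47.7 (biological), 172 ± 61.6 (artificial) and 35.4 ± 32.9 (weed-free; SD, n = 3 each).

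Genes of ion and water transport formed another group among the named members. HAK3 (LOC103635197, chromosome 8, 53178033 to 53181247, plus strand), a potassium transporter, had 43.0, 24.9 and 51.7 normalized counts in biological libraries, 34.1, 31.9 and 36.7 in artificial libraries, and 11.6, 14.1 and 12.3 in weed-free libraries. A second potassium transporter, HAK11 (LOC103645946, chromosome 2), was far more abundant but moved less, at 1389, 1280.3 and 1320.0 in biological libraries, 1800.3, 1389 and 1246 in artificial libraries, and 1017, 849.7 and 542 in weed-free libraries. The aquaporin PIP1-5 (LOC542014, chromosome 4, 175098463 to 175099887, minus strand), a water channel family member of the plasma membrane, had 2579, 1277 and 2436 in biological libraries, 2565, 1636 and 2306 in artificial libraries, and 1161, 898 and 987 in weed-free libraries. Biological replicate 2 of PIP1-5 stood only a little above weed-free replicate 1. NIP2-2 (LOC541884, chromosome 6, 123754366 to 123758140, minus strand), whose rice counterparts carry silicic acid, had 8002, 5264 and 9003 in biological libraries, 6950.1, 6909.6 and 7435 in artificial libraries, and 3786, 3387 and 4118 in weed-free libraries. The artificial libraries of NIP2-2 lay close together, and its level was 1.97-fold and 1.89-fold that of the control. The phosphate transporter gene pht7 was low, at means of 30.7 (biological), 27.5 (artificial) and 14.2 (weed-free) normalized counts. The metal transporter gene Nramp1 had 74.6, 59.2 and 50.1 in biological libraries, 78.9, 43.9 and 56.6 in artificial libraries, and 36.7, 33.2 and 35.1 in weed-free libraries.

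**Figure D3:**
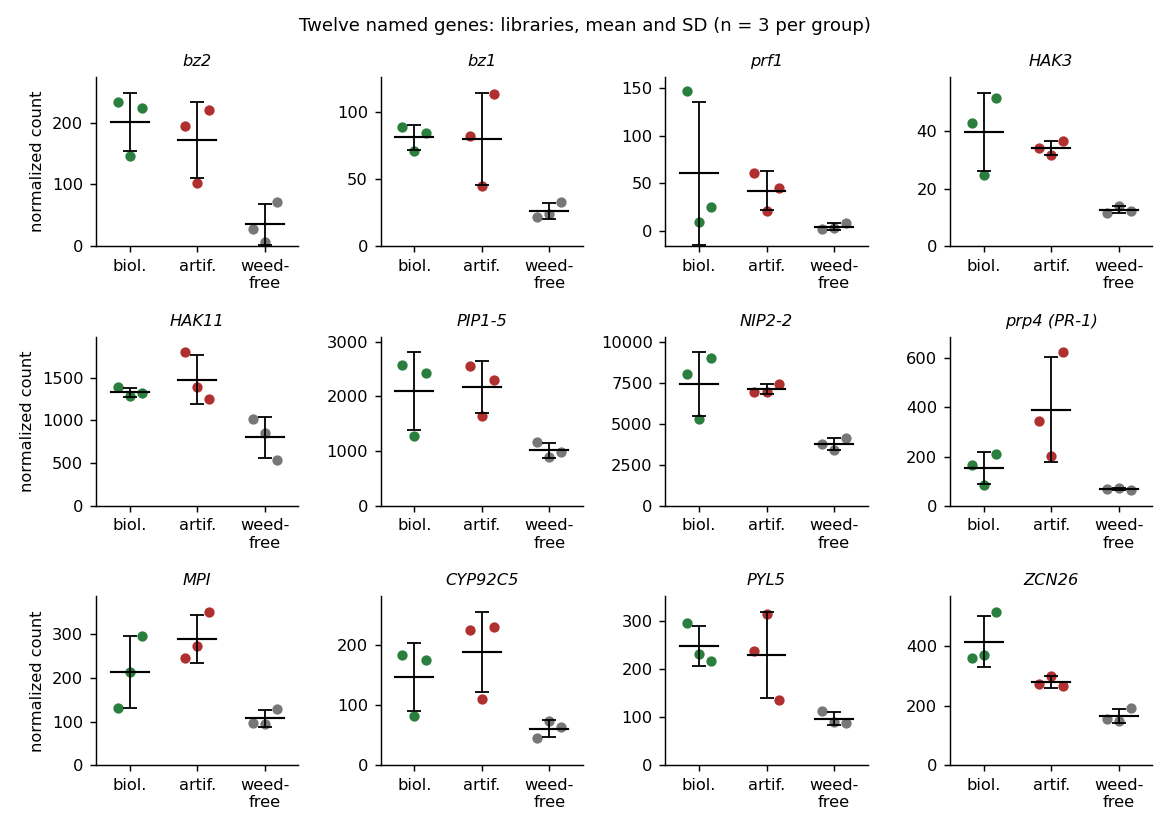
Normalized counts of 12 named genes in libraries of the biological source, the artificial source and the weed-free control. Each point is a library, the horizontal bar is the mean and the error bar the SD (n = 3 per group), and each panel has its own linear axis. In every panel all 6 low R:FR points lie above the 3 weed-free points, as the choice requires, and in prf1 a single biological library at 147 carries the mean.

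Defence genes were represented by a pathogenesis-related protein, a proteinase inhibitor and volatile-forming enzymes. The pathogenesis-related gene prp4 (PR-1, LOC542352, chromosome 7, 3606430 to 3607168, plus strand) had 166, 83.1 and 210.0 normalized counts in biological libraries, 346, 204 and 625 in artificial libraries, and 69.8, 74.1 and 64.4 in weed-free libraries. Its level was 2.18-fold and 5.58-fold that of the control. MPI (LOC542408, chromosome 8, 138036912 to 138037684, plus strand), a proteinase inhibitor induced by wounding, had 130.2, 214 and 294 in biological libraries, 244, 271 and 351 in artificial libraries, and 97.6, 94.6 and 129 in weed-free libraries. Biological replicate 1 of MPI was level with the highest weed-free library within 2 normalized counts. CYP92C5 (LOC103631958, chromosome 7), a cytochrome P450 of homoterpene formation, had 183, 82.0 and 174 in biological libraries, 224, 111 and 229 in artificial libraries, and 45.7, 72.8 and 64.4 in weed-free libraries. AAMT1 (LOC100500707, chromosome 9, 3414740 to 3416781, minus strand), which makes the volatile methyl anthranilate, averaged 125 ± 16.6 (biological), 141 ± 36.0 (artificial) and 55.2 ± 1.88 (weed-free; SD, n = 3 each). The gene annotated as vignain (LOC100274134), a papain-type cysteine protease, was at 6013 ± 623, 5351 ± 1522 and 3282 ± 274 in the same order.

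Regulators with a name were few. PYL5 (LOC100281868, chromosome 9, 143120565 to 143121710, plus strand), a receptor of abscisic acid, had 296, 232 and 217 normalized counts in biological libraries, 238, 316 and 137 in artificial libraries, and 114, 90.7 and 88.1 in weed-free libraries. The levels of the low R:FR groups overlapped, and artificial replicate 3 was the lowest of them. ZCN26 (LOC100127539, chromosome 9, 81479413 to 81482839, plus strand), of the FT/TFL1 family that includes the flowering signal of plants, had 363, 369.7 and 517 in biological libraries, 273, 302 and 266 in artificial libraries, and 156, 149 and 193 in weed-free libraries, so that its 3 groups were all apart. MYB42 (LOC100101513), known as a repressor of lignin genes in maize, averaged 384 ± 105 (biological), 412 ± 157 (artificial) and 210.0 ± 31.2 (weed-free). The SBP-box transcription factor gene sbp20 was near 50 normalized counts in both low R:FR groups, at means of 44.5 (biological), 49.9 (artificial) and 25.7 (weed-free). No role is given here for GB1 (LOC100217119), which averaged 3162, 3601 and 1273 normalized counts in these groups.

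The most abundant genes of the module had ratios near or below its median, apart from the first. LOC100125656 (chromosome 10, 8428282 to 8429856, minus strand) averaged 18462 ± 5193 normalized counts in biological, 24270.4 ± 2814 in artificial and 7685 ± 373 in weed-free leaves (SD, n = 3 each). LOC103629226 (chromosome 6, 42758157 to 42759948, minus strand) averaged 17334 ± 1369, 17699 ± 3775 and 8342 ± 431 in the same groups, with log2 ratios of 1.06 and 1.09. The gene kin1 (LOC100126898, chromosome 7) averaged 11659 ± 2297 (biological), 12184 ± 1582 (artificial) and 6382 ± 622 (weed-free). LOC100192109 had log2 ratios of 0.87 and 0.80, and LOC100384229 of 0.80 and 0.92. Per gene length, LOC100125656 reached 1177 TPM (transcript units scaled to the same library total) in biological, 1668 in artificial and 526 in weed-free leaves, and LOC103629226 reached 431, 465 and 218 TPM.

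The question of whether the living and the lamp source gave unlike levels was tested gene by gene. With limma, 0 of the 167 genes passed an adjusted p under 0.1 for biological against artificial light, where 0% of all 23476 genes tested passed. At an unadjusted p under 0.05 there were 11 (6.59%), 5 higher and 6 lower under the biological source, against 8.36% of all genes tested. The share of the module was near that background, which was not chosen to be high under both sources. With edgeR on the recovered reads 0 members were called, where 0.098% of genes were, and with DESeq2 1 was, where 1.96% of genes were. The median log2 difference, biological minus artificial, was -0.01 over the 167 genes and -0.04 over all genes tested. The mean was higher under the biological source in 85 genes and under the artificial source in 82, and it differed by no more than 0.3 log2 units in 118. The 95% interval of the difference was ±0.646 log2 units wide in the median (0.291 to 2.664) and lay within -1 to 1 in 115 genes, and it reached past 2-fold in the other 52. A p-value above the threshold therefore does not show that both sources acted alike.

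The gene with the smallest p was LOC103650187 (chromosome 3, 69923142 to 69923952, plus strand), named after its values were seen. It had 948, 991 and 1435 normalized counts in biological libraries, 442, 694 and 352 in artificial libraries, and 286, 271 and 352 in weed-free libraries. The biological libraries lay above all artificial ones, and artificial replicate 3 was level with weed-free replicate 3. Its log2 difference, biological minus artificial, was 1.21 ± 0.28 (SE), with an adjusted p of 0.278 in limma, 0.0941 when all 9 libraries shared 1 fit, and 0.0163 with DESeq2. The largest difference the other way among the named genes was that of prp4, at -1.31 ± 0.48 (SE), an interval of -2.43 to -0.18 and an adjusted p of 0.508 in limma. ZCN26 had a difference of 0.55 ± 0.18 (SE), an interval of 0.14 to 0.97 and an adjusted p of 0.425. Same-numbered biological and artificial libraries deviated together to a small degree, so the differences were also fitted with the replicate number as a block. The labels do not state such a pairing, and it is an assumption of this fit. With this pairing 0 members passed an adjusted p under 0.1 in limma, and 23 (13.8%) had an unadjusted p under 0.05, where 9.93% of all genes tested did. The gene with the smallest p was then prp4, with log2 differences of -1.06, -1.29 and -1.57 between the biological and the artificial library of the same number. Its blocked difference was -1.31 ± 0.16 (SE), with an interval of -1.72 to -0.89 and an adjusted p of 0.138, although the ranges of its groups overlapped at 210.0 and 204 normalized counts. The blocked adjusted p was 0.285 for LOC103650187 and 0.409 for ZCN26, both higher in the biological library of all 3 pairs. Counted after the data were seen, 23 members (13.8%) were higher in all 3 pairs and 23 (13.8%) lower, against 18.2% and 17.4% of the genes within the bounds. The choice of genes high under both sources partly sets these shares, so nothing is read from them. In the unpaired fit, for bz2 the interval was -0.51 to 1.04, for bz1 -0.69 to 0.91, for PIP1-5 -0.80 to 0.62 and for NIP2-2 -0.45 to 0.51, and all of these hold 0.

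All 3 biological libraries lay above all 3 artificial ones in 5 genes of the module (3.0%), against 9.05% of the genes within the bounds. The reverse held in 7 genes (4.2%), against 7.06%. In the other 155 genes (92.8%) the ranges of both sources overlapped. Because the choice required both sources to be high, these shares are partly set by it and do not show that the sources acted alike. Removing the library that stood apart, biological replicate 3, left 1 member called in limma, LOC100383435, which was named after its values were seen, at a log2 difference of -0.94 and an adjusted p of 0.098, where 0.45% of all genes tested were called.

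**Figure D4:**
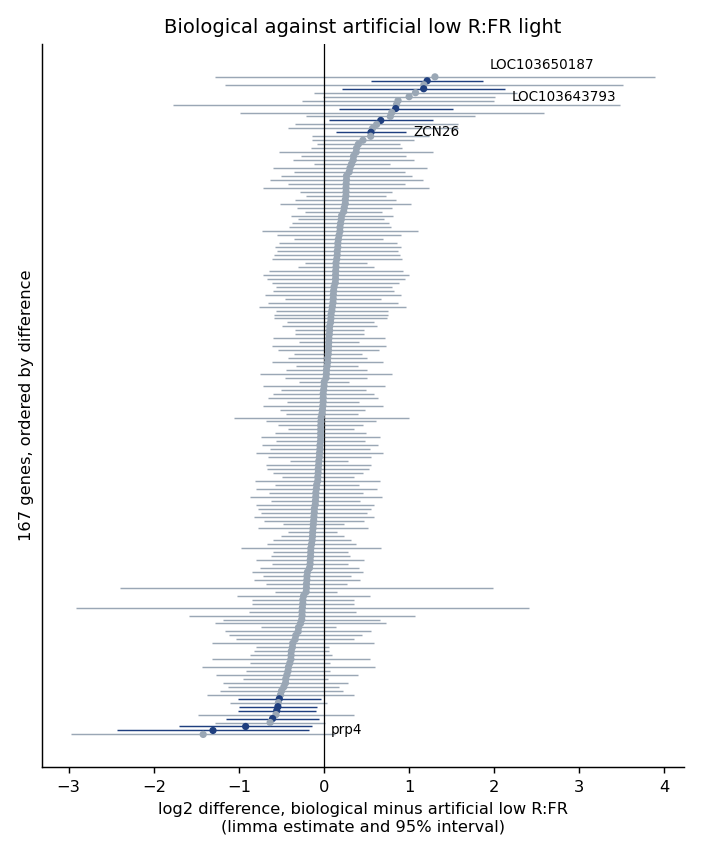
Difference of each of the 167 genes between biological and artificial low R:FR light, as the limma log2 estimate (point) with its 95% interval (line), ordered by size. Dark symbols have an unadjusted p under 0.05 (11 genes), and none passed an adjusted p under 0.1. Most intervals cross 0, and the widest belong to genes such as LOC100280572 whose biological replicate 1 was far above the other libraries.

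The named members were also set among the other genes with the same kind of symbol. These 10 families (103 genes) were chosen after the members were known, so their counts describe and do not test. The members in them were chosen by the same contrasts, so the counts here are of the other genes of each family. In the comparison of artificial light with the control, 9.98% of all genes tested were called higher and 11.9% lower. Of 8 other anthocyanin genes tested, limma called 0 higher and 4 lower, with a median log2 difference of -0.40. Of 16 other HAK potassium transporters, 6 were called higher and 2 lower (median 0.28), and of 22 other aquaporins 6 were called higher and 3 lower (median 0.06). Of 5 other pathogenesis-related proteins and proteinase inhibitors, 2 were called higher and 1 lower (median 1.31). All 3 other PHT phosphate transporters tested were called higher (median 1.11), while the member pht7 was not called (adjusted p = 0.13 in limma). Calls of higher expression were also made for 2 of 8 other PYL receptors and 1 of 2 other AAMT enzymes, and for 0 of 2 other ZCN genes and 0 of 2 other profilins, with none lower. None of the 7 phytochrome, PIF and phototropin genes was a member, and 3 of them were called higher with a median of -0.06. Over all 75 nonmembers tested, 23 were called higher and 10 lower.

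For biological light against the control, limma called 0 of the 76 nonmembers tested, where 0.0466% of all genes were called higher. An unadjusted p under 0.05 was found for 24 of them (31.6%), where 10.1% of all genes had one. With edgeR 0 were called, where 0.0508% of all genes were, and with DESeq2 10 (13.2%), where 2.12% of all genes were. Their median log2 differences were 0.24 for aquaporins, 0.10 for HAK transporters, 0.56 for PHT transporters, 0.20 for PYL receptors, 0.38 for AAMT enzymes and 0.18 for phytochrome, PIF and phototropin genes. They were -0.02 for anthocyanin genes, -0.07 for pathogenesis-related proteins and inhibitors, -0.07 for ZCN genes and -0.01 for profilins. Over all genes tested the median was -0.05 under the biological and 0.01 under the artificial source. Between the sources limma called 0 of 77 nonmembers. An unadjusted p under 0.05 was found for 21 of these (27.3%, against 8.36% of all genes), edgeR called 0, and DESeq2 called 5 (6.49%, against 1.96%).

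**Figure D5:**
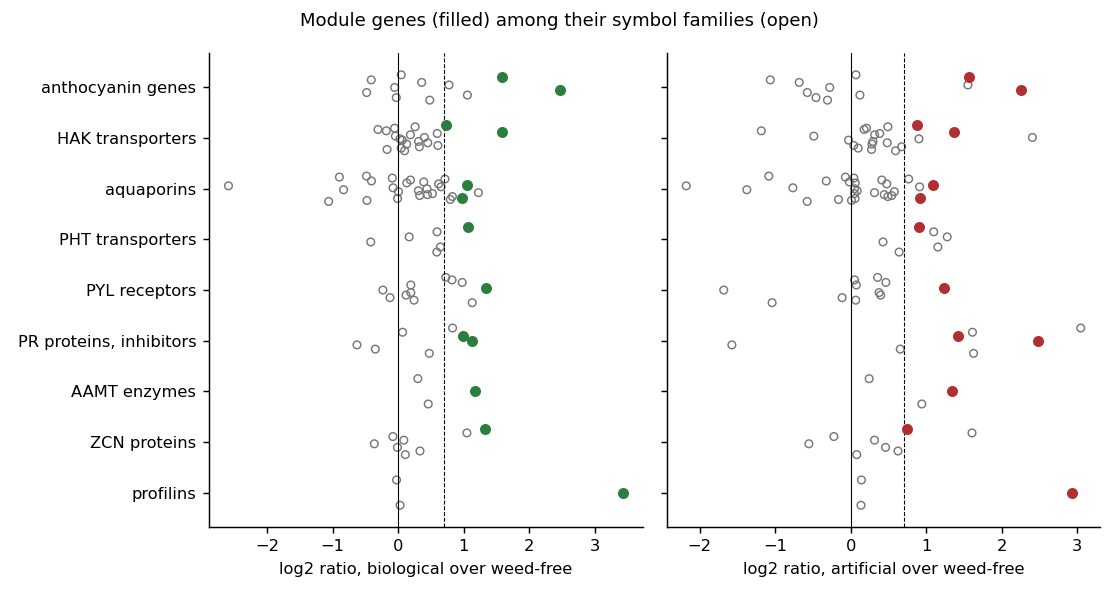
Log2 ratio of each gene of 9 symbol families over weed-free, for the biological source (left) and the artificial source (right). Filled points are members of the module, open points are other genes of the family, including those of low level that were not tested, and the dashed line marks 0.7. Filled points lie right of the dashed line in both panels by the choice, while most open points of the HAK, aquaporin and anthocyanin rows lie left of it.

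The genes lay on all 10 chromosomes. Chromosome 6 held 24 of them (14.4%, against 8.5% of the genes within the bounds) and chromosome 5 held 11 (6.6%, against 11.9%). Protein-coding genes made up 154 (92.2%, against 93.0%), and long non-coding RNAs 11 (6.6%, against 3.2%). Members were shorter, with a median gene length of 2042 bases against 3924 over the genes within the bounds. A name beyond the locus identifier was carried by 21 members (12.6%, against 10.8%).

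Members lay within 250 kb of the next member in 12 pairs. No like count was made for other genes, so nothing is read from this number about clustering. On chromosome 4, LOC103652771, LOC100281925 and LOC103652772 followed each other over 6157142 to 6281967. LOC100281925 had 609, 454 and 565 normalized counts in biological libraries, 727, 599 and 479.9 in artificial libraries, and 288, 303 and 251 in weed-free libraries. On chromosome 3, LOC100502313 lay 20206 bases from LOC100281208 with no gene of the table between them, and LOC100281208 averaged 605 ± 94.3 (biological), 586 ± 34.3 (artificial) and 338 ± 31.3 (weed-free; SD, n = 3 each), without the high replicate 1 of its neighbour. In 2 pairs the genes overlapped on opposite strands. The non-coding LOC115032949 overlaps the coding LOC100280972 on chromosome 6, and the non-coding LOC118472198 overlaps the coding LOC103629531 on the same chromosome. No strand setting is stated, and the counters named in the submitters' notes and in the study's methods differ in their default, so reads of the genes in such a pair cannot be told apart and each pair may be a single signal. LOC100280972 had 2934, 2042 and 3084 in biological libraries, 3777, 3184 and 3332 in artificial libraries, and 1379.6, 1309.7 and 1339 in weed-free libraries, and LOC115032949 had the same order of libraries within each group, though not across groups, at 599, 456 and 675, then 813, 640.0 and 663, then 282, 243 and 274.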

How the data were processed

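RNA-seq libraries from 9 pools of second leaves (3 per group, each of 3 plants) were analysed. The deposited table gives a signal per gene, read counts that the authors scaled with DESeq2, each library by a size factor of its own. The submitters' processing notes name Bowtie2 2.4.3, HTSeq 0.13.5 and DESeq2 1.30.1, while the study's methods name another aligner and counter with an Ensembl Plants annotation. The identifiers in the table are RefSeq's, which that annotation does not use, and which steps made the table is not stated. The authors also deposited TPM per gene, used for levels per gene length and as an alternative, and tables of their own comparisons (fold changes and p-values), which were not used. In every library 100% of the values were whole multiples of 1 step within 0.01, and reads were recovered from these steps, also for artificial replicate 2, whose step is near 1. All 9 value columns were mapped by label, 0 were left over, and 0 rows named no gene.

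Genes with at least 10 normalized counts in at least 3 of the 6 libraries compared were tested on log2(normalized count + 1) with limma 3.58.1 (trend over the mean, R 4.3.3), with Benjamini-Hochberg adjustment over all genes tested and calls at an adjusted p under 0.1. Fold changes on this scale understate the change of low genes. The script was tested on simulated data. Alternatives were edgeR 4.0.16 and DESeq2 1.42.0 on the recovered reads, other pseudocounts, filters, scalings and TPM, a joint fit of all 9 libraries, a block for the replicate number, and leaving out each library. Samples with the same number in the biological and artificial groups deviated together to a small degree (correlations 0.124, 0.255 and 0.146). The numbers were taken to pair these groups in the blocked fit, and the block left 0 genes called between them. The labels state no pairing, differently numbered libraries were not compared, and biological and weed-free replicate 1 also correlated at 0.124. The pairing is thus an assumption. Replicates are pools of plants, and p-values set the difference between groups against the spread between these pools.

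The members and gene lists were chosen with earlier results of these data known. The text names the 12 members with the largest smaller ratio, 20 with a symbol, up to 3 per family, the 5 most abundant and those nearest the threshold, and says where a gene was chosen after its values were seen. Names came from the RefSeq annotation of assembly Zm-B73-REFERENCE-NAM-5.0, which held 29125 of the 30184 identifiers, 94% at an unchanged start and end. Positions are those of this annotation. It held no product names here, so the lists and markers set out by product name could not be applied, and symbol families took their place. No sequences were used here. Near-identical copies of a gene may share reads.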

Additional observations from a re-analysis of the deposited data

How the results depend on the processing

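The deposited values limit the design to 3 pools per group, and leaving out 1 library changed counts of calls by large factors. For biological against weed-free light limma called 11 genes, and 2 at an adjusted p under 0.05, 50 with TPM, 94 with all 9 libraries in 1 fit, 1 with the replicate block, 501 with DESeq2 and between 0 and 1936 when each library was left out, the highest without biological replicate 3 (163 without biological replicate 2), and 0 without replicate 1 of the biological group or replicates 1 and 2 of the control. For artificial against weed-free light it called 5121 genes, 2931 at an adjusted p under 0.05, 1134 with all 9 libraries in 1 fit and between 2305 and 5408 when each library was left out. Same-numbered libraries of either source and the control had correlations of -0.007 to 0.124, the highest of them equal to the lowest between the sources. With the block, 5120 genes were called for artificial against weed-free light. Between the sources 0 genes were called, 24 with a pseudocount of 5, 18 with TPM, 263 with all 9 libraries in 1 fit, 23 with edgeR, 461 with DESeq2 and between 0 and 104 when each library was left out, the highest without biological replicate 3. Of the 167 members, 1 was called between the sources with all 9 libraries in 1 fit, 1 with DESeq2, and 0 to 1 when each library was left out. In all these cases the cause was not tested. The module itself held 337 genes at a ratio of at least 0.5, 61 at 1, and 147 to 233 when each library was left out, of which 134 to 161 were among the 167. With TPM it held 79, 76 of them among the 167. The added 1 weighs more on low TPM values than on counts. The TPM of 148 of the 167 did not overlap between the low R:FR and weed-free libraries. That count is largely set by the choice, which required this of the counts of the same libraries. No TPM share over all genes is given beside it, so nothing is read from it. Among the ratios of the 36 named genes, 504 recomputed values held 24 that moved by more than 1 SD between replicates and 0 that changed sign. The counts of members called between the sources were added after seeing the data, as was the count of members whose sources do not overlap. That count was 12 and lay between 22 and 34 when each library was left out. With a library fewer, ranges separate more easily for any gene. No share over all genes is given for these counts, so nothing is read from the rise.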
